A study of Mus musculus with 6 samples.

Results

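The genes described here encode the machinery of the G2 phase and of mitosis, from the cyclins that switch on CDK1 to the motors and ring proteins that separate daughter cells. They were chosen by symbol from a written list of 50 genes, and all 50 had a row among the 11779 genes of the deposited count table. Expression was measured by RNA-seq in long-term hematopoietic stem cells, the bone marrow cells that can rebuild all blood lineages over a lifetime. They were sorted as lineage-negative, Sca1+, c-Kit+, CD48- and CD150+. The HET group (n = 3 libraries) was of genotype c-Mycfl/+Mx1Cre, with 1 floxed c-Myc allele and a Cre transgene under the interferon-responsive Mx1 promoter, which acts in many blood and non-blood cells. The WT group (n = 3 libraries) was of genotype c-Mycfl/+ and carried the same floxed allele without Cre. Every mouse was female and 8 weeks old. The floxed allele was deleted by poly(I:C), an interferon inducer injected 3 times at 6 mg/kg. Whether WT mice were injected too is not stated for them by name. Libraries carry the numbers 1, 3 and 4 in either group. HET is called a knockout in the titles, although the genotype is heterozygous. Nothing in the sources used here says that the libraries came from separate animals, so p-values measure the spread between these libraries, which may be partly technical.

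Cells enter mitosis when cyclin B and CDK1 form an active kinase, which CDC25 phosphatases switch on. The spindle assembly checkpoint then holds the anaphase-promoting complex inactive until every kinetochore is attached to the spindle, after which securin and the cyclins are destroyed and separase cuts the rings that hold sister chromatids together. Most of these genes are silent in resting cells and are transcribed together late in the cycle, through promoters that carry a CHR (cell cycle genes homology region) element read by the DREAM repressor and by the B-MYB and FOXM1 activators. Long-term stem cells are largely quiescent, and such cells rarely divide.

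HET 1, 3 and 4 held 9886223, 4627452 and 5054028 counts in total, against 5512100, 5600856 and 4249490 in WT 1, 3 and 4. Levels are given in CPM, counts divided by the library total after its scaling by a TMM factor. At these depths 3 counts were worth 0.303 CPM in HET 1 and up to 0.706 CPM in WT 4. Myc, the targeted gene, measured 294, 387 and 372 CPM in HET 1, 3 and 4, and 447, 427 and 542 CPM in WT 1, 3 and 4, a log2 fold change of -0.43 ± 0.12 (SE), with an unadjusted edgeR p of 0.00235 and an adjusted p of 0.312 over all genes tested. The exact two-sided permutation test of Myc gave p = 0.1, the smallest that 3 libraries against 3 allow. All 14 listed sort and stem cell markers were in the table. Kit averaged 1193 ± 58.5 CPM in HET and 1157 ± 68.8 CPM in WT and Slamf1, which encodes CD150, 68.2 ± 14.04 CPM in HET and 73.8 ± 11.1 CPM in WT (SD, n = 3 each). Transcripts of Cd48, whose protein the sort excluded, were measured at 3.67, 8.29 and 8.96 CPM in HET 1, 3 and 4, and 3.25, 2.74 and 1.67 CPM in WT 1, 3 and 4. Each HET library lay above each WT library for Cd48, whose edgeR adjusted p was 0.849.

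No G2 or mitosis gene passed the test of HET against WT, given the spread of the libraries. Of the 50 members, 0 passed an adjusted p of 0.05 in the edgeR quasi-likelihood test, and 0 did so with DESeq2 or with limma-voom. Over all 10869 genes tested, 28 passed (0.258%), 4 of them higher (0.0368%) and 24 lower (0.221%) in HET, a count that was 68 without HET 1, 11 without WT 1 and 10 without HET 4. At an unadjusted p under 0.05 stood 2 members (4.0%), Cenpa and Cenpf, against 5.22% of all genes tested. The smallest adjusted p of any member was 0.461. Log2 fold changes were positive for 28 members and negative for 22 (44.0%), against 49.3% negative over all genes tested. Their median was 0.06, beside 0.00 over all genes tested. They ran from -0.61 for Cenpa to 0.82 for Cenpf. Summed over the 50 members, the level was 3237 ± 1026 CPM in HET and 3262 ± 585 CPM in WT (SD, n = 3 each), a ratio of 0.992.

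The intervals show what these 6 libraries can and cannot tell. For 36 of the 50 members the 95% interval of the difference lay inside a 2-fold change in either direction, and for 11 it lay inside a 1.5-fold change. The median standard error of a member's log2 fold change was 0.28. Smaller differences between the groups were not detectable at this spread, and the absence of a call does not show that the groups were alike. The plot of fold changes shows each member with its interval.

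**Figure D1:**
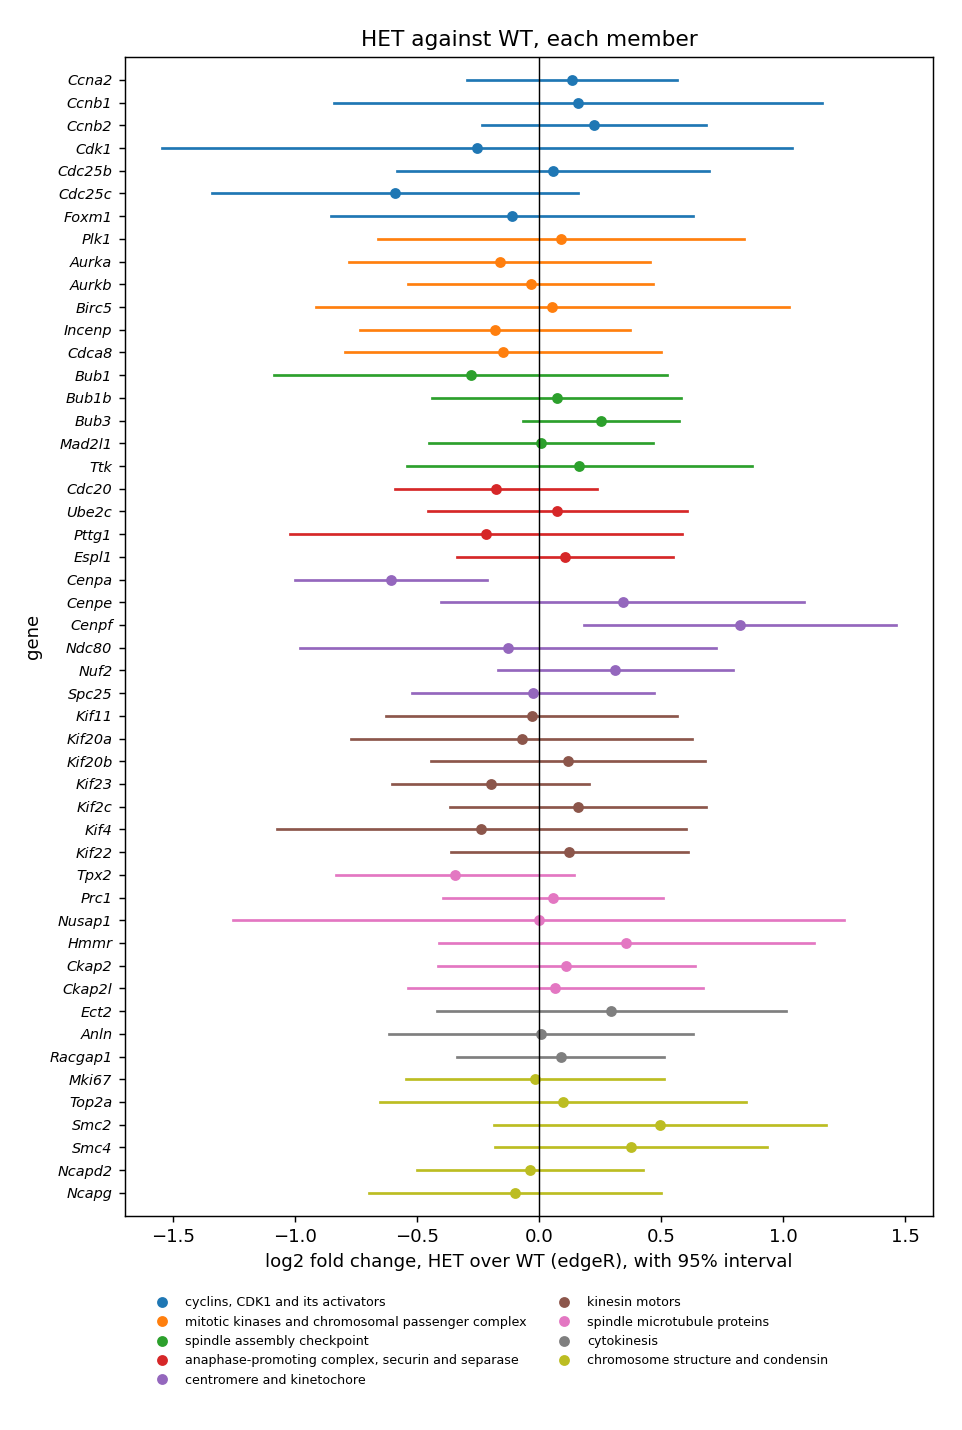
Log2 fold change of each of the 50 members, HET over WT, from the edgeR fit across all genes (points), with 95% intervals (lines) and colours by role. The intervals of Cenpa and Cenpf leave out 0 before adjustment, and the other 48 include it.

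What did vary was the level in single libraries, and most members varied together. The summed level was 4283, 2232 and 3197 CPM in HET 1, 3 and 4, and 3300, 3827 and 2659 CPM in WT 1, 3 and 4. HET 1 was the highest library and HET 3 the lowest, so the WT libraries lay between these extremes of the HET group. The members took 0.437% of all counts in HET 1, 0.221% in HET 3 and 0.325% in HET 4, against 0.332% in WT 1, 0.374% in WT 3 and 0.262% in WT 4. In a pool of sorted cells, fewer cycling cells and less mitotic RNA per cycling cell cannot be told apart.

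Gene by gene the order was much the same. HET 1 was the highest of the 6 libraries for 31 of the 50 members and WT 3 for 10, while over all genes tested these libraries were highest for 17.7% and 15.5%. HET 3 was the lowest for 38 members and WT 4 for 11, against 18.4% and 19.2% of all genes tested. For 26 members the HET range enclosed the whole WT range, which held for 21.2% of all genes tested. The highest HET library exceeded the lowest by 1.90-fold at the median of the members, beside 1.32-fold for the 8871 tested genes of the same range of levels. In WT the corresponding values were 1.55-fold and 1.31-fold. All 50 genes were read in the same 6 libraries, so the members are not independent of each other.

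**Figure D2:**
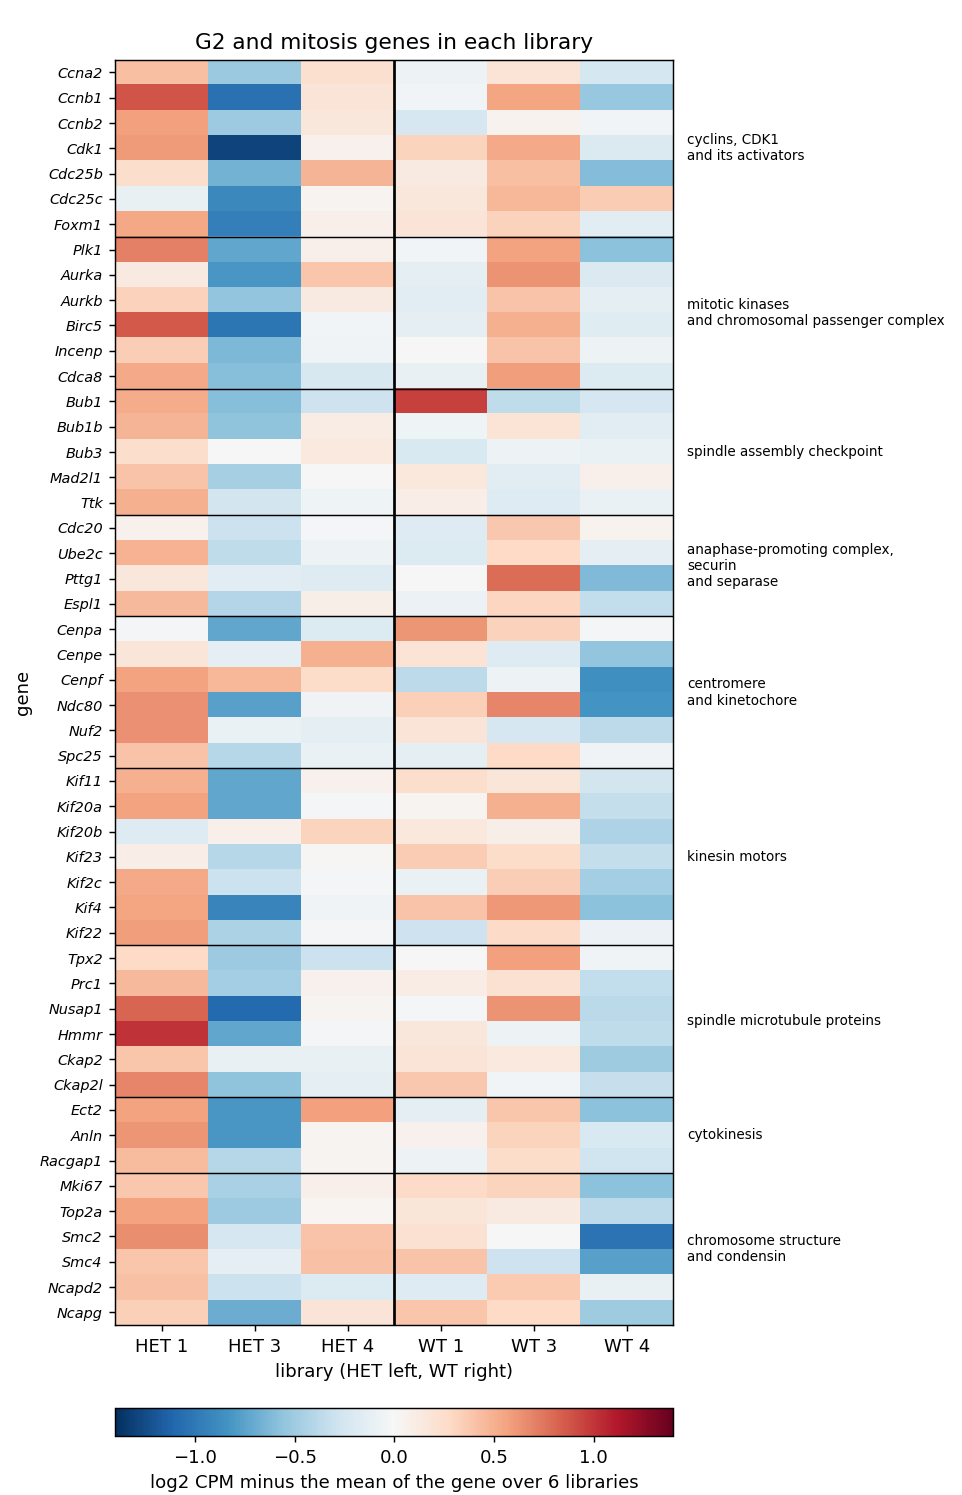
Level of each member in each library as log2 CPM minus the mean of that gene over the 6 libraries, with members grouped by role and HET libraries left of WT libraries. Most rows are red in HET 1 and blue in HET 3, and WT 3 and WT 4 form a weaker pair of the same kind.

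Other gene groups were set beside this order. The 43 tested replication and S phase genes summed to 8018, 4883 and 5201 CPM in HET 1, 3 and 4, and to 5523, 6155 and 5430 CPM in WT 1, 3 and 4. Their highest library was HET 1 and their lowest HET 3, as for the mitotic genes. Markers of granulocytes, which the sort should exclude, also moved with the libraries: 6 of the 9 listed markers were in the table, none at 0 counts in any library, and they summed to 268, 18.1 and 154 CPM in HET 1, 3 and 4, and to 126, 495 and 18.1 CPM in WT 1, 3 and 4. The lowest sums were those of HET 3 and WT 4, the libraries with the lowest mitotic level, and the highest were those of WT 3 and HET 1, the libraries with the highest. Ngp, S100a9 and the other granulocyte genes are expressed during neutrophil maturation, and their part in the mitotic level was not tested. Of the megakaryocyte and platelet markers, 7 of 10 were in the table. They summed to 889, 562 and 620.3 CPM in HET 1, 3 and 4. The sums in WT 1, 3 and 4 were 541, 492 and 468 CPM. The highest value was again in HET 1, but unlike the mitotic sums each HET sum lay above each WT sum. Itga2b made up much of these sums, with 560.5, 364 and 390.5 CPM in HET 1, 3 and 4. In WT 1, 3 and 4 it measured 316.3, 288.5 and 263.3 CPM. Of the 7 markers, 1 had groups without overlap, namely Itga2b, beside 10.3% of all genes tested. As a mean log2 level relative to WT, in which each marker weighs alike, HET 3 (0.09) lay below WT 1 (0.186). All 7 had positive fold changes, and none passed after adjustment. The smallest p was that of Itga2b (adjusted p in edgeR = 0.132). Summed, the 14 sort and stem cell markers ran opposite to the mitotic order within HET and within WT. Their sums were 4377, 5035 and 5023 CPM in HET 1, 3 and 4. In WT 1, 3 and 4 they were 4715, 4594 and 4944 CPM. The lowest sums were those of HET 1 and WT 3 within their groups, and the highest those of HET 3 and WT 4. Single markers differed: within HET, Kit and Ly6a were lowest in HET 3, and Slamf1 and Procr in HET 1. As a mean log2 level relative to WT, the list was highest within HET in HET 4 (0.142, against 0.085 in HET 3). HET 1 was also the most deeply sequenced library. When its counts were reduced (thinned) to the average depth of the remaining libraries, the members' median log2 fold change was 0.03, against 0.06 unthinned. In both fits 22 of 50 members were negative, and thinning changed the sign of 2. The mitotic level of HET 1 after thinning is not given here, and any other part of depth in that level was not tested.

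**Figure D3:**
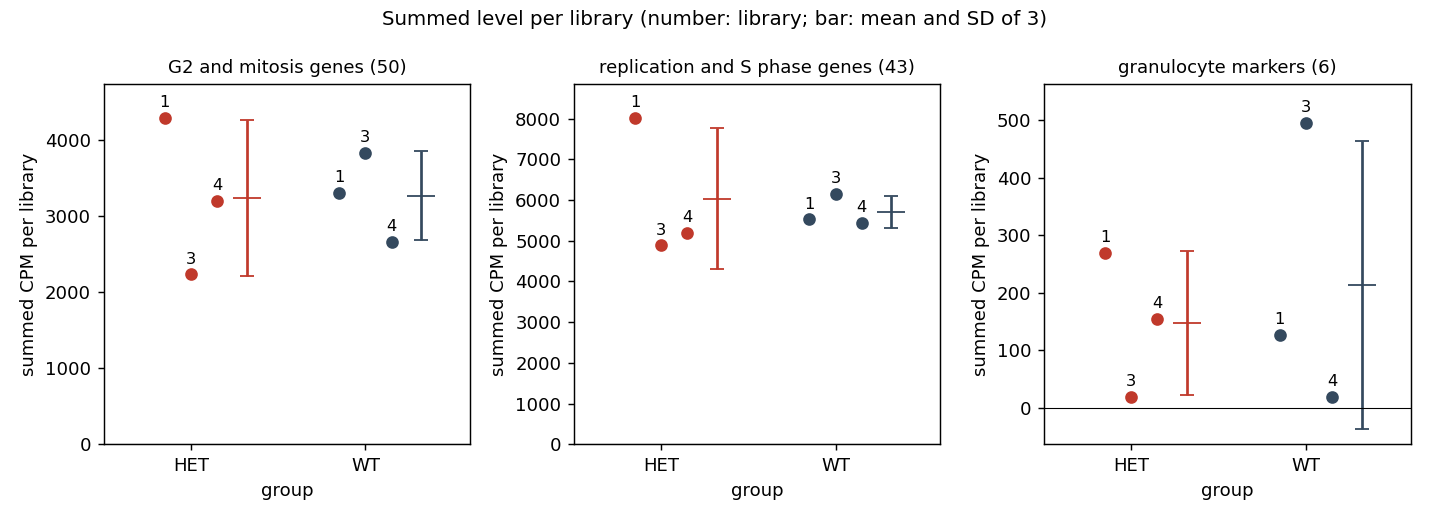
Summed CPM per library of the 50 G2 and mitosis genes, the 43 tested replication genes and the 6 tested granulocyte markers, with HET left and WT right; points are libraries, labelled by number, and bars are mean and SD of 3. The 2 groups have close means for the mitotic genes, while HET 1 and HET 3 differ by 1.92-fold and WT 3 and WT 4 by 1.44-fold.

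The promoters of the members were also compared. Whether their elements bear on the library order was not tested. RefSeq windows of 300 bases, from 250 before to 50 after the annotated start (GRCm38.p6), were found for 42 members and not for Ccna2, Cdc25c, Foxm1, Incenp, Aurkb, Kif20a, Tpx2 and Smc4. The CHR element was searched as TTTGAA or TTTAAA on both strands, where TTTAAA is its own reverse complement and TTTGAA reads TTCAAA on the other strand. It was present in 36 of the 42 members (85.7%), beside 22.3% of the 8946 genes of the count table with a window and 30.6% of all 27025 genes with a window. The form TTTGAA alone was in 78.6% of members and 14.3% of genes in the table. In 31 of the 42 members a CHR match began within 50 bases of the annotated start. CCAAT, the box bound by the factor NF-Y, was searched on both strands and found in 78.6% of members and 42.8% of genes in the table, and at least 2 copies in 21 of 42 members against 16.3% of genes in the table. CACGTG, the E-box to which MYC and MAX bind, was in 3 of 42 members (7.14%), against 11.97% of genes in the table and 8.09% of all genes with a window. A match is a match of letters and does not show that a factor binds there.

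The 4 members of highest level per kb of exon with a CHR match in the window are shown so that the spacing of the elements can be seen, with CHR and CCAAT matches of either strand in capitals.
Ncapd2, chr6:125191537-125191836, minus strand: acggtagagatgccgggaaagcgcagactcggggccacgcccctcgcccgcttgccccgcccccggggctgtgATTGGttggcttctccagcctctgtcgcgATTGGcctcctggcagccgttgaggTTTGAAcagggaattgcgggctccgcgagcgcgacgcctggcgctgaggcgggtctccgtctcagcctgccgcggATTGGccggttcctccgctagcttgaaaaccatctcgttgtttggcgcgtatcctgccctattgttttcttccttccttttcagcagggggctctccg
Ccnb2, chr9:70421505-70421804, minus strand: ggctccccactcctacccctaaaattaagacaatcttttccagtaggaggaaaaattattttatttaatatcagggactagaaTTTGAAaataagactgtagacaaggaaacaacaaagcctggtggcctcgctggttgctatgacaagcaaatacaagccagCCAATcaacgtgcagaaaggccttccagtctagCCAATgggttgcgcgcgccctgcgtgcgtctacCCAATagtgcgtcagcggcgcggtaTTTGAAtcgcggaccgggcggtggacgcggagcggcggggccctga
Bub1b, chr2:118597961-118598260, plus strand: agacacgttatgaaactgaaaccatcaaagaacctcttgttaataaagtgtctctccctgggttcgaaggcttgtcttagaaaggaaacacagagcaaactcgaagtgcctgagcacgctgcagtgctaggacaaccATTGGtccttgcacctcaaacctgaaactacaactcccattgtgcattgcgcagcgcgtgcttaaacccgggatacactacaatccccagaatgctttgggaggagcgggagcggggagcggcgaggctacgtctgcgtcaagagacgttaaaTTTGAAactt
Top2a, chr11:99024140-99024439, minus strand: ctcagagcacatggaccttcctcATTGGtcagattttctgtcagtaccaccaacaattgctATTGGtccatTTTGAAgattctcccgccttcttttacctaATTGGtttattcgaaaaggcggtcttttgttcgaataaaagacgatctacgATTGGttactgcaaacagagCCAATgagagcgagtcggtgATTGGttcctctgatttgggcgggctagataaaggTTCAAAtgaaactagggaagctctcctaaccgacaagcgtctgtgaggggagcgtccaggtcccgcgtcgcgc
The Top2a window holds 2 CHR matches and 6 CCAAT boxes, that of Ccnb2 2 and 3, that of Ncapd2 1 and 3 and that of Bub1b 1 and 1. These genes followed the library order described above, with HET 1 the highest and HET 3 the lowest library for each.

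Cenpa and Cenpf are shown in the same way because their groups separated in opposite directions, a choice made after their values were seen.
Cenpa, chr5:30666636-30666935, plus strand: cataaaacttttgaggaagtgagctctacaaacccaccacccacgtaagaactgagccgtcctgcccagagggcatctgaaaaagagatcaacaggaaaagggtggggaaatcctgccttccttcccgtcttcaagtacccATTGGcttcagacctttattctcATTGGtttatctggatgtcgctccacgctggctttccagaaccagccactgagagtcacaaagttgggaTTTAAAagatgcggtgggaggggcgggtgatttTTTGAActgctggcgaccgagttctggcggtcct
Cenpf, chr1:189688037-189688336, minus strand: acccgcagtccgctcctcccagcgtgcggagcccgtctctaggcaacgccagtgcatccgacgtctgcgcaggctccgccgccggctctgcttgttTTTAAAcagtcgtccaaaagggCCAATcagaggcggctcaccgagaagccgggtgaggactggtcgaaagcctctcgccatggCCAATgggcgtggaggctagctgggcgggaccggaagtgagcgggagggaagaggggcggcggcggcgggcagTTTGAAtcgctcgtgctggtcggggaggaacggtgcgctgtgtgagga
Each holds 2 CCAAT boxes and 2 CHR matches, of which TTTAAA lies upstream and TTTGAA nearer the end of the window.

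The centromere and kinetochore genes held the members with the smallest p-values. Cenpa encodes the histone H3 variant that marks centromeric chromatin (GRCm38 chromosome 5, 30666777 to 30674830, plus strand). It measured 89.97, 54.96 and 79.9 CPM in HET 1, 3 and 4, and 139.6, 113.8 and 90.15 CPM in WT 1, 3 and 4. All HET libraries lay below all WT libraries, by a gap of only 0.18 CPM between HET 1 and WT 4. The log2 fold change was -0.61 ± 0.19 (SE; 95% interval -1.001 to -0.21), or 65.7% of WT, with an unadjusted edgeR p of 0.00463 and an adjusted p of 0.461. It was negative in each fit that left out 1 library, between -0.77 and -0.43, with a lowest adjusted p of 0.0783 without HET 1. Cenpf, a large kinetochore and nuclear matrix protein gene (chromosome 1, 189640606 to 189688086, minus strand), measured 22.3, 20.9 and 18.1 CPM in HET 1, 3 and 4, and 11.7, 14.4 and 8.35 CPM in WT 1, 3 and 4. Here the HET libraries lay above the WT libraries, with a gap of 3.67 CPM and little spread within HET. Its log2 fold change was 0.82 ± 0.31 (SE; 95% interval 0.18 to 1.47), the unadjusted edgeR p 0.0143 and the adjusted p 0.722. At 1.04 CPM per kb of exon, Cenpf had the lowest level per length of all members, and its counts per library started at 35.

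The other kinetochore genes had overlapping groups. Nuf2, part of the NDC80 complex that grips microtubules, measured 66.2, 39.7 and 38.97 CPM in HET 1, 3 and 4, and 48.2, 36.04 and 32.9 CPM in WT 1, 3 and 4, with the highest value in HET 1 and a log2 fold change, with its SE, of 0.31 ± 0.23 (adjusted p in edgeR = 0.995). Its complex partners Ndc80 and Spc25 averaged 22.98 ± 10.8 CPM in HET and 25.3 ± 11.8 CPM in WT for Ndc80, and 33.5 ± 9.59 CPM in HET and 34.3 ± 5.38 CPM in WT for Spc25 (SD, n = 3 each). Ndc80 spread widely in both groups, by 2.63-fold within HET and 2.86-fold within WT. Cenpe, a kinetochore motor, averaged 12.9 ± 2.78 CPM in HET and 10.1 ± 2.60 CPM in WT (SD, n = 3 each; log2 fold change 0.34). Of the 6 members of this role 3 had positive and 3 negative fold changes.

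**Figure D4:**
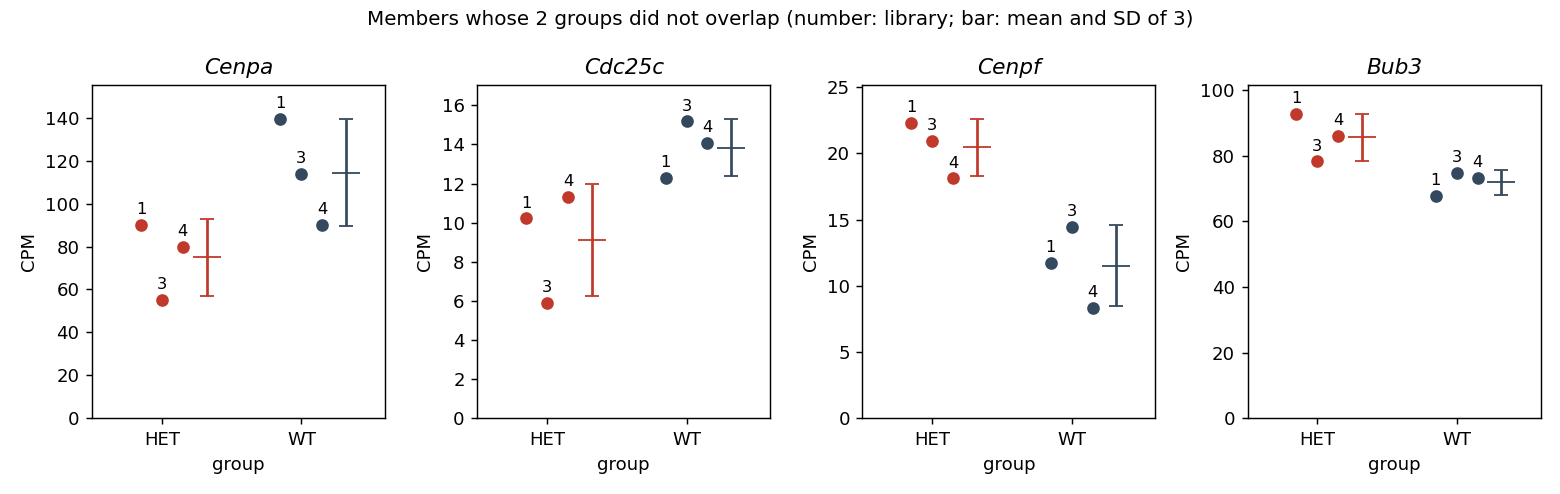
CPM per library of the 4 members whose HET and WT libraries did not overlap, with HET left and WT right; points are libraries, labelled by number, and bars are mean and SD of 3. Cenpa and Cdc25c were lower and Cenpf and Bub3 higher in HET, and none passed after adjustment.

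Only these 4 members, 8.0% of 50, had groups without overlap in the fit of all 6 libraries: Cenpf and Bub3 with HET above, Cenpa and Cdc25c with HET below. Over all genes tested the share was 10.3%, made up of 4.69% with HET above and 5.64% with HET below. The count was 3 when no filter on low counts was applied or when HET 1 was thinned.

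Among the cyclins, CDK1 and its activators, 4 of 7 members had positive and 3 negative fold changes. Cdc25c encodes a phosphatase that activates CDK1 at mitotic entry (chromosome 18, 34732993 to 34751533, minus strand). It measured 10.2, 5.89 and 11.3 CPM in HET 1, 3 and 4, and 12.3, 15.2 and 14.1 CPM in WT 1, 3 and 4. Each HET library lay below each WT library, with HET 3 the lowest, a log2 fold change, with its SE, of -0.59 ± 0.36 (adjusted p in edgeR = 0.987) and values between -0.75 and -0.36 when 1 library was left out. Its relative Cdc25b, which acts earlier at the centrosome, averaged 43.5 ± 15.99 CPM in HET and 41.8 ± 14.1 CPM in WT (SD, n = 3 each). Ccnb2, which encodes cyclin B2, measured 93.1, 43.8 and 69.8 CPM in HET 1, 3 and 4, and 53.04, 64.6 and 60.6 CPM in WT 1, 3 and 4. The WT libraries were close together and lay between HET 3 and HET 4 (log2 fold change 0.22 ± 0.22 SE; adjusted p in edgeR = 0.995). Ccna2, which encodes the S and G2 cyclin A2, measured 105, 54.96 and 91.8 CPM in HET 1, 3 and 4, and 74.7, 89.6 and 66.1 CPM in WT 1, 3 and 4. The HET range again enclosed the WT range (log2 fold change 0.13 ± 0.20 SE; adjusted p in edgeR = 0.995).

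Cdk1, the kinase these cyclins activate, spread widely, with 93.6, 25.3 and 64.7 CPM in HET 1, 3 and 4, and 77.4, 89.6 and 54.1 CPM in WT 1, 3 and 4. HET 1 exceeded HET 3 by 3.7-fold, and the log2 fold change was -0.25 ± 0.50 (SE; adjusted p in edgeR = 0.995). Foxm1, the transcription factor that drives many of the other members, measured 93.3, 33.1 and 67.4 CPM in HET 1, 3 and 4, and 73.1, 80.5 and 57.7 CPM in WT 1, 3 and 4. It followed Cdk1 in its order, with HET 3 far below the other libraries (log2 fold change -0.11 ± 0.33 SE; adjusted p in edgeR = 0.995). Ccnb1, which encodes cyclin B1, averaged 8.32 ± 4.90 CPM in HET and 7.55 ± 2.84 CPM in WT (SD, n = 3 each; log2 fold change 0.16). Per kb of exon Ccnb1 stood at 1.88 CPM and Ccnb2 at 41.9 CPM, a ratio of 22.3. Part of this ratio comes from the exonic lengths used, 4217 bases for Ccnb1 and 1531 bases for Ccnb2. Before division by length the means over the 6 libraries were 7.94 CPM for Ccnb1 and 64.2 CPM for Ccnb2. In GENCODE M21, 4 pseudogenes match Ccnb1 transcripts at 95% identity or more over at least 200 bases, 3 of them over more than 50% of the transcript. The sources used here do not say how reads matching both were counted, so the level of Ccnb1 is uncertain.

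The mitotic kinases and the chromosomal passenger complex had small fold changes, from -0.18 to 0.09 over 6 members, 2 of them positive. Incenp, the scaffold of the passenger complex, had the highest level per length of all 50 members at 62.9 CPM per kb of exon. It measured 337, 172 and 257 CPM in HET 1, 3 and 4, and 266, 350.3 and 252 CPM in WT 1, 3 and 4. HET 3 was the lowest library, and HET 1 and WT 3 were close to each other (log2 fold change -0.18 ± 0.24 SE; adjusted p in edgeR = 0.995). Aurka, the centrosome and spindle pole kinase, measured 32.2, 16.8 and 38.4 CPM in HET 1, 3 and 4, and 27.1, 45.4 and 25.5 CPM in WT 1, 3 and 4. Its highest library was WT 3 and its lowest HET 3 (log2 fold change -0.16 ± 0.29 SE; adjusted p in edgeR = 0.995). Cdca8, which encodes the passenger subunit borealin, measured 86.1, 39.5 and 50.9 CPM in HET 1, 3 and 4, and 55.6, 89.1 and 52.2 CPM in WT 1, 3 and 4, with HET 1 and WT 3 well above the other libraries (log2 fold change -0.15 ± 0.29 SE; adjusted p in edgeR = 0.995). Aurkb, the kinase of the passenger complex, averaged 37.6 ± 10.9 CPM in HET and 38.8 ± 8.90 CPM in WT (SD, n = 3 each). Birc5, which encodes its subunit survivin, averaged 35.7 ± 21.8 CPM in HET and 34.9 ± 9.75 CPM in WT (SD, n = 3 each) and spread by 3.66-fold within HET. Plk1, a polo-like kinase active from mitotic entry to cytokinesis, averaged 28.5 ± 13.4 CPM in HET and 26.97 ± 10.5 CPM in WT (SD, n = 3 each; log2 fold change 0.09).

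Spindle assembly checkpoint genes included the steadiest member. Bub3, which recruits checkpoint kinases to kinetochores and is also used outside mitosis, measured 92.7, 78.3 and 85.9 CPM in HET 1, 3 and 4, and 67.7, 74.8 and 73.2 CPM in WT 1, 3 and 4 (chromosome 7, 131560222 to 131571895, plus strand). Its libraries spread by 1.18-fold within HET and 1.11-fold within WT, the smallest spread of any member in either group. Each HET library lay above each WT library, with a log2 fold change of 0.25 ± 0.15 (SE; 95% interval -0.06 to 0.57; edgeR adjusted p = 0.98), and between 0.19 and 0.32 when 1 library was left out. Bub1, a checkpoint kinase, measured 19.7, 9.16 and 11.3 CPM in HET 1, 3 and 4, and 26.9, 10.8 and 11.7 CPM in WT 1, 3 and 4. WT 1 stood apart at the top of all libraries (log2 fold change -0.28 ± 0.39 SE; adjusted p in edgeR = 0.995). Ttk, which encodes the checkpoint kinase MPS1, measured 17.3, 10.2 and 11.7 CPM in HET 1, 3 and 4, and 12.99, 10.8 and 11.4 CPM in WT 1, 3 and 4, with HET 1 the highest library (log2 fold change 0.17 ± 0.34 SE; adjusted p in edgeR = 0.995). Bub1b, which encodes the checkpoint protein BUBR1, had the highest level of the role at 37.4 CPM per kb of exon and measured 217, 106 and 168 CPM in HET 1, 3 and 4, and 149.7, 179 and 139.8 CPM in WT 1, 3 and 4. HET 1 and HET 3 enclosed every other library (log2 fold change 0.07 ± 0.23 SE; adjusted p in edgeR = 0.995). Mad2l1, which encodes the inhibitor MAD2, averaged 43.1 ± 12.5 CPM in HET and 43.1 ± 4.74 CPM in WT (SD, n = 3 each).

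Of the 4 genes of anaphase onset, 2 had positive and 2 negative fold changes. Cdc20, the activator of the anaphase-promoting complex, measured 50.98, 39.5 and 48.3 CPM in HET 1, 3 and 4, and 43.1, 63.5 and 50.6 CPM in WT 1, 3 and 4. It spread less within HET (1.29-fold) than most members, and its log2 change of -0.18 ± 0.20 (SE; adjusted p in edgeR = 0.995) was nearest to 0 without WT 3, at -0.0119. Pttg1, which encodes securin, measured 11.9, 9.60 and 9.35 CPM in HET 1, 3 and 4, and 10.6, 18.3 and 6.92 CPM in WT 1, 3 and 4. WT 3 was the highest library and WT 4 the lowest, with the HET libraries between them (log2 fold change -0.22 ± 0.39 SE; adjusted p in edgeR = 0.995). Espl1, which encodes separase, measured 94.8, 51.9 and 72.9 CPM in HET 1, 3 and 4, and 65.3, 85.1 and 54.6 CPM in WT 1, 3 and 4, in the common order with HET 1 highest and HET 3 lowest (log2 fold change 0.11 ± 0.21 SE; adjusted p in edgeR = 0.995). Ube2c, the ubiquitin-conjugating enzyme of the complex, averaged 29.9 ± 9.10 CPM in HET and 28.6 ± 5.34 CPM in WT (SD, n = 3 each), and 22.8% of its exonic bases overlap Tnnc2 on the opposite strand.

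Of the 7 kinesin motors, 3 had positive and 4 negative fold changes, and each group overlapped the other. Kif23, the motor of the centralspindlin complex, measured 70.8, 50.4 and 67.2 CPM in HET 1, 3 and 4, and 84.8, 79.03 and 52.5 CPM in WT 1, 3 and 4. Its lowest libraries were HET 3 and WT 4 and its log2 fold change was -0.20 ± 0.19 (SE; adjusted p in edgeR = 0.995). Kif2c, a microtubule-depolymerizing kinesin of the centromere, measured 50.4, 28.4 and 34.5 CPM in HET 1, 3 and 4, and 32.6, 44.1 and 25.04 CPM in WT 1, 3 and 4 (log2 fold change 0.16 ± 0.25 SE; adjusted p in edgeR = 0.995). Its highest library was HET 1 and its lowest WT 4. Kif4, a chromosome-bound kinesin, measured 46.8, 16.8 and 30.8 CPM in HET 1, 3 and 4, and 42.2, 48.5 and 21.5 CPM in WT 1, 3 and 4 (log2 fold change -0.24 ± 0.38 SE; adjusted p in edgeR = 0.995). HET 3 and WT 4 stood well below the other libraries. Kif20a had the highest level of the role at 14.3 CPM per kb of exon and measured 87.5, 35.8 and 58.1 CPM in HET 1, 3 and 4, and 60.8, 83.8 and 47.2 CPM in WT 1, 3 and 4 (log2 fold change -0.07 ± 0.31 SE; adjusted p in edgeR = 0.995). In Kif20a 29.3% of exonic bases overlap Cdc23 on the opposite strand, and without a stated strand setting reads of the pair cannot be told apart. More than 10% of exonic bases also overlap another gene of the table in Ccna2, Kif4, Prc1 and Ncapg, with the same uncertainty. In Cdc25c and Ube2c more than 10% overlap Gm3550 and Tnnc2, which are not in the table. The levels of Cdc25c and Ube2c are uncertain too. Kif11, which pushes spindle poles apart, averaged 81.6 ± 32.5 CPM in HET and 83.8 ± 14.8 CPM in WT (SD, n = 3 each). Kif22, which binds chromosome arms, averaged 59.9 ± 21.7 CPM in HET and 55.4 ± 10.9 CPM in WT (SD, n = 3 each). Kif20b averaged 23.6 ± 4.02 CPM in HET and 21.5 ± 4.42 CPM in WT (SD, n = 3 each), and it was the only member in which HET 1 lay below HET 3.

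Spindle microtubule genes had fold changes from -0.34 to 0.36. Tpx2, which activates Aurora A on the spindle, measured 162, 93.8 and 108 CPM in HET 1, 3 and 4, and 135, 199.6 and 129.5 CPM in WT 1, 3 and 4. HET 3 and HET 4 lay below every WT library and HET 1 did not (log2 fold change -0.34 ± 0.22 SE; adjusted p in edgeR = 0.995). Without HET 1 the log2 fold change of Tpx2 was -0.62, with an adjusted p of 0.136, and over the 6 fits that left out 1 library it lay between -0.62 and -0.12. Hmmr, a spindle and hyaluronan-binding protein gene, measured 50.98, 15.3 and 24.9 CPM in HET 1, 3 and 4, and 28.1, 24.1 and 19.8 CPM in WT 1, 3 and 4. HET 1 was far above the other 5 libraries (log2 fold change 0.36 ± 0.36 SE; adjusted p in edgeR = 0.995), and without it the log2 fold change was -0.26. Ckap2 measured 36.3, 25.7 and 25.7 CPM in HET 1, 3 and 4, and 31.4, 30.4 and 19.6 CPM in WT 1, 3 and 4 (log2 fold change 0.11 ± 0.25 SE; adjusted p in edgeR = 0.995), and WT 4 was its lowest library. Its relative Ckap2l averaged 39.5 ± 18.1 CPM in HET and 38.1 ± 9.32 CPM in WT (SD, n = 3 each). Prc1, which bundles the microtubules of the central spindle, averaged 95.01 ± 29.5 CPM in HET and 91.6 ± 17.9 CPM in WT (SD, n = 3 each). Nusap1, a spindle-stabilizing protein gene, averaged 43.8 ± 26.1 CPM in HET and 44.3 ± 16.2 CPM in WT (SD, n = 3 each), with a log2 fold change of -0.0007 and a spread of 3.74-fold within HET.

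All 3 cytokinesis genes had positive fold changes with overlapping groups. Ect2, the exchange factor that switches on RhoA at the division plane, measured 35.5, 13.7 and 35.9 CPM in HET 1, 3 and 4, and 21.8, 31.5 and 16.2 CPM in WT 1, 3 and 4. HET 1 and HET 4 were close to each other and HET 3 was the lowest library (log2 fold change 0.30 ± 0.34 SE; adjusted p in edgeR = 0.995). Racgap1, the partner of KIF23 in centralspindlin, measured 93.4, 52.1 and 70.7 CPM in HET 1, 3 and 4, and 65.5, 81.96 and 56.8 CPM in WT 1, 3 and 4, again with HET 1 highest and HET 3 lowest (log2 fold change 0.09 ± 0.20 SE; adjusted p in edgeR = 0.995). Anln, which encodes the contractile ring scaffold anillin, measured 66.4, 24.6 and 44.4 CPM in HET 1, 3 and 4, and 45.1, 53.6 and 37.2 CPM in WT 1, 3 and 4 (log2 fold change 0.01 ± 0.29 SE; adjusted p in edgeR = 0.999). Its group means were nearly equal, at 45.1 ± 20.9 CPM in HET and 45.3 ± 8.20 CPM in WT (SD, n = 3 each).

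Of the 6 genes of chromosome structure, 3 had positive and 3 negative fold changes. Top2a, which encodes the topoisomerase that untangles sister DNA, measured 472, 226 and 327 CPM in HET 1, 3 and 4, and 360.5, 349 and 249 CPM in WT 1, 3 and 4, and its log2 fold change was 0.10 ± 0.30 (SE; adjusted p in edgeR = 0.995). HET 1 and HET 3 were its extremes. Smc2 and Smc4 encode the ATPase pair shared by the condensin complexes, and their positive fold changes were the largest of this role. Smc2 measured 83.3, 45.4 and 70.2 CPM in HET 1, 3 and 4, and 61.5, 53.4 and 25.99 CPM in WT 1, 3 and 4 (log2 fold change 0.50 ± 0.31 SE; adjusted p in edgeR = 0.995). Smc4 measured 88.8, 61.5 and 89.6 CPM in HET 1, 3 and 4, and 89.3, 55.2 and 39.8 CPM in WT 1, 3 and 4 (log2 fold change 0.38 ± 0.26 SE; adjusted p in edgeR = 0.995). In both, WT 4 was the lowest library. As single libraries were left out, the log2 fold change of Smc2 lay between 0.22 without WT 4 and 0.73 without WT 1, and that of Smc4 between 0.15 without WT 4 and 0.75 without WT 1. The lowest edgeR adjusted p of Smc4 among these fits was 0.399, without WT 1. The condensin I subunit gene Ncapg measured 34.4, 16.8 and 30.8 CPM in HET 1, 3 and 4, and 35.7, 33.1 and 19.3 CPM in WT 1, 3 and 4 (log2 fold change -0.10 ± 0.29 SE; adjusted p in edgeR = 0.995), with HET 3 and WT 4 the lowest libraries. Ncapd2, another condensin I subunit, measured 409, 251 and 270.3 CPM in HET 1, 3 and 4, and 271, 398 and 287 CPM in WT 1, 3 and 4 (log2 fold change -0.04 ± 0.21 SE; adjusted p in edgeR = 0.995). At 50.2 CPM per kb of exon it ranked next after Incenp, and its exons share 237 bases with the small RNA gene Scarna10 on the same strand, so its level is uncertain. Mki67, the common marker of cycling cells, averaged 73.4 ± 20.4 CPM in HET and 74.5 ± 22.8 CPM in WT (SD, n = 3 each), and its log2 change was -0.02 ± 0.24 (SE; adjusted p in edgeR = 0.998).

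The direction of most members depended on the libraries included, and 38 of 50 changed sign in at least 1 fit that left out a library. The share of all genes tested that changed sign is not given here, so this is not shown to be particular to the members. Without HET 1, 42 of 50 members were negative, with a median of -0.25. Without HET 3 the median was 0.25 and 7 of 50 were negative. The median was 0.18 without WT 3 and -0.08 without WT 4, and 0.06 without HET 4 or without WT 1. The smallest adjusted p of any member over the 6 fits was 0.0783. The sign was the same in all 6 fits for 12 members, some of them at sizes close to 0. On the negative side, Cdc20 ranged from -0.30 to -0.0119, the value without WT 3, and Kif23 from -0.38 to -0.0646, the value without HET 3. Cenpa, Cdc25c and Tpx2, whose ranges are given above, were the others. On the positive side, Nuf2 ranged from 0.0072 without HET 1 to 0.49 without WT 1, and Ect2 from 0.0964 without HET 1 to 0.62 without HET 3. Cenpe ranged from 0.18 to 0.55 and Cenpf from 0.65 to 1.02, and Bub3, Smc2 and Smc4 had the ranges given above.

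**Figure D5:**
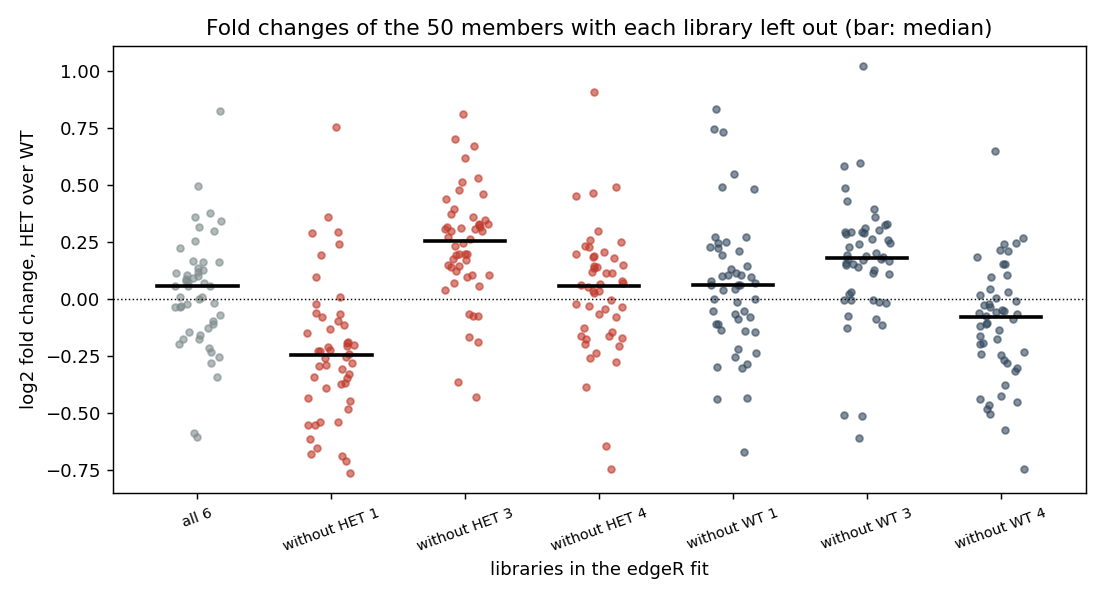
Log2 fold changes of the 50 members, HET over WT, in the edgeR fit of all 6 libraries and in 6 further fits, each without 1 library (points), with the median as a bar. The cloud lies mostly below 0 without HET 1 (median -0.25) and mostly above 0 without HET 3 (median 0.25).

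Genes that work beside the members were counted in the same way. None of the 191 genes tested on 9 related lists passed in edgeR in either direction, against 0.258% of all genes. Of these 191, 2 had an unadjusted edgeR p under 0.05, against 5.22% of all genes tested. Of 28 other kinetochore and centromere genes, 15 had positive and 13 negative fold changes (median 0.03), and the smallest p was that of Cenpo (log2 fold change 0.47 ± 0.22 SE; adjusted p in edgeR = 0.95). The 34 other spindle and centrosome genes had a median of 0.05, and the smallest p was that of Plk4, the kinase of centriole duplication (log2 fold change 0.55 ± 0.28 SE; adjusted p in edgeR = 0.954). The 15 genes of the anaphase-promoting complex and its modulators had a median of 0.02, led by its inhibitor gene Fbxo5 (log2 fold change 0.49 ± 0.28 SE; adjusted p in edgeR = 0.98). Cohesin genes (16, median 0.06), the other condensin subunits (4, median 0.01) and the genes that control mitotic phosphatases (15, median -0.05) were also without a call. Among 21 DREAM, B-MYB and E2F regulators, which repress or activate the members, the median was -0.01 and the smallest p that of Rbl1, which encodes the pocket protein p107 (log2 fold change 0.23 ± 0.17 SE; adjusted p in edgeR = 0.995). The 15 genes of G2 brakes and the DNA damage checkpoint had a median of 0.10, and Atm, the kinase that senses double-strand breaks, had the smallest p (log2 fold change 0.42 ± 0.16 SE; adjusted p in edgeR = 0.777). The 43 replication genes had a median of 0.07, and Orc1, a subunit of the origin recognition complex, the smallest p (log2 fold change -0.69 ± 0.35 SE; adjusted p in edgeR = 0.952).

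The library order recurred outside the list. By Pearson correlation over the 6 libraries with the mean standardized level of the members, the 5 genes most alike among 10819 other genes were Orc6 (r = 0.998), Mad2l2 (0.998), Hist1h3c (0.993), Shcbp1 (0.989) and Cdc45 (0.988). Orc6 and Cdc45 act in DNA replication. With so many genes and 6 libraries, high values of r also arise without a shared cause, so these are given as a description. Orc6 measured 44.5, 20.3 and 32.1 CPM in HET 1, 3 and 4, and 32.3, 39.7 and 24.3 CPM in WT 1, 3 and 4. Within the list, the correlation of a member with the mean of the others had a median of 0.883 over the 6 libraries, and it was above 0.8 for 31 members. It was lowest for Kif20b (0.114), Cenpf (0.245) and Bub3 (0.389). Cenpf and Bub3 had groups without overlap, and an offset between groups also enters this correlation. HET 1 was the highest library for both. Bub3 kept the order of the summed level within HET but not within WT, and Cenpf within WT but not within HET.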

How the data were processed

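RNA-seq was available for 6 libraries, grouped by the genotype label. The authors deposited whole-number read counts per gene. Per the submitters' processing notes, FastQC, STAR 2.5.2b, edgeR, limma and mm10 were used, with no role given. The growth, treatment and extraction protocols on the sample records describe human biopsies, not mouse stem cells, and were not used. The read counter, annotation, strand setting and kit of these libraries are therefore unknown here. Every gene in the table exceeded 1 CPM in at least 2 libraries (lowest second-highest value 1.012), so low genes had been removed before deposit. Date-like entries were mapped back to 18 gene symbols.

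Counts were fitted across the whole table with edgeR 4.0.16 in R 4.3.3. filterByExpr removed 910 genes and left 10869, including all 50 members. TMM set the library sizes. The robust quasi-likelihood F test (two-sided) contrasted HET and WT, and its p-values were adjusted by Benjamini-Hochberg over all genes, with a threshold of 0.05. The biological coefficient of variation was 20.7%. Standard errors were derived from the F statistic. Log2 fold changes are HET over WT. Exonic lengths are unions of GENCODE M21 exons (GRCm38, also called mm10), and promoters are from RefSeq (GRCm38.p6). Pairs of libraries within a group differed by a chi-square per degree of freedom of at least 8.35, so none was a copy.

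The members, their roles and the other lists were chosen with earlier results of these data known, so no list was tested and no p-value was adjusted over the members alone. Per-library values are given by rule for up to 3 members per role of smallest p and for the member of highest level per kb. Per-library values of Cdk1, Foxm1 and Top2a, and the Cenpa and Cenpf promoters were added after values were seen. Of the list genes, 5 were matched by an older symbol. Alternatives were RLE and upper quartile scaling, no filter or an average log2 CPM of at least 2, DESeq2 1.42.0, limma-voom (limma 3.58.1), a library-number block, a threshold of 0.1 and leaving out each library. Thinning HET 1 and using only protein-coding genes were added after the data were seen.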

Additional observations from a re-analysis of the deposited data

How the results depend on the processing

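No member passed an adjusted p of 0.05 under any setting tried. At a threshold of 0.1 none passed with all 6 libraries, and Cenpa did without HET 1 (edgeR adjusted p = 0.0783). The count over all genes was 59 with DESeq2 and 49 with the library number as a block, against 28, and lay between 10 (without HET 4) and 68 (without HET 1) when 1 library was left out. Members without overlap between the groups numbered 3 to 8 in those fits. Without HET 1, 3 and 4 they were 7, 8 and 3, where the share over all genes was 24.1%, 20.5% and 17.6%. Without WT 1, 3 and 4 they were 7, 4 and 5, beside 23.4%, 18.8% and 18.2% of all genes. The main fit did not pair same-numbered libraries. Deviations from the group mean correlated at 0.116, -0.06 and 0.063 for numbers 1, 3 and 4. HET 1 and HET 4 correlated best with the WT library of their own number, and HET 3 with WT 4 (0.136). Deviations from a mean of only 3 libraries are tied to each other, so these values cannot decide whether the numbers mark pairs. With the replicate block the members' median was -0.005. Myc ranged from -0.50 to -0.32 (log2) as single libraries were left out.

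Uncalled fold changes near 0 changed sign most often. Nusap1 was 0.0088 with upper quartile scaling, 0.0060 with no filter and 0.0186 with limma-voom. With limma-voom Aurkb was 0.0089, Spc25 0.0312 and Mki67 0.0252. Under the replicate block Birc5 was -0.0758, Mad2l1 -0.0297, Ckap2l -0.0011 and Anln -0.0751. With HET 1 thinned, Mad2l1 was -0.0081 and Spc25 0.0049. Leaving out 1 library changed the sign of 38 members, with no share over all genes to set beside it. The cause was not tested. Lowest and highest log2 fold changes over these fits were -0.0661 to 0.36 for Ccna2, -0.37 to 0.51 for Ccnb1, -0.0625 to 0.46 for Ccnb2, -0.71 to 0.11 for Cdk1, -0.17 to 0.32 for Cdc25b, -0.48 to 0.19 for Foxm1, -0.33 to 0.43 for Plk1, -0.39 to 0.15 for Aurka, -0.23 to 0.18 for Aurkb, -0.54 to 0.39 for Birc5. They were -0.43 to 0.0389 for Incenp, -0.54 to 0.14 for Cdca8, -0.69 to 0.27 for Bub1, -0.19 to 0.30 for Bub1b, -0.23 to 0.20 for Mad2l1, -0.10 to 0.31 for Ttk, -0.20 to 0.24 for Ube2c, -0.48 to 0.23 for Pttg1, -0.13 to 0.30 for Espl1, -0.56 to 0.19 for Ndc80. For the next genes they ran -0.28 to 0.14 for Spc25, -0.35 to 0.23 for Kif11, -0.45 to 0.19 for Kif20a, -0.0359 to 0.24 for Kif20b, -0.11 to 0.39 for Kif2c, -0.65 to 0.0567 for Kif4, -0.21 to 0.33 for Kif22, -0.19 to 0.26 for Prc1, -0.56 to 0.35 for Nusap1, -0.26 to 0.67 for Hmmr. The remaining ranges were -0.0809 to 0.23 for Ckap2, -0.38 to 0.31 for Ckap2l, -0.39 to 0.30 for Anln, -0.15 to 0.27 for Racgap1, -0.25 to 0.17 for Mki67, -0.21 to 0.32 for Top2a, -0.29 to 0.16 for Ncapd2, -0.32 to 0.15 for Ncapg. RLE scaling, the stricter filter, DESeq2 and protein-coding genes alone changed no member's sign. Depth limits the low genes: Ccnb1 had as few as 16 counts in a library.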
